A study of Mus musculus with 28 samples.

Results

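Complement components and inhibitors were followed by 9 listed genes: the C1q chains C1qa, C1qb and C1qc, the proteases C1s and C2, the central components C3 and C4b, factor B (Cfb) and the C1 inhibitor Serping1. All probes of these genes were taken by gene symbol from the deposited array table. Of the 9 genes, 8 had a probe, 12 probes in all, among 19057 genes and 45281 probes on the array. The probe annotation listed no probe for C3, which was not analysed here, and it names C1s by its current symbol C1s1. All 8 genes with a probe passed the detection filter, as did 11804 genes in all. C1s, Cfb and Serping1 were detected on 0 of the 3 normal arrays and so passed through the tumors alone.

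The arrays measured total RNA of 28 mouse samples in 3 groups, all on the BALB/c background. The first tumor group held 14 plasma cell tumors that grew after premalignant B cells of the strain C.iMyc/IL-6 were transferred, sampled as oil granuloma tissue at 105 to 158 days. The second held 11 plasma cell tumors that arose spontaneously in C.iMyc/IL-6 mice, sampled as lymph node at 40 to 162 days. C.iMyc/IL-6 combines an inserted Myc gene with a transgene for the cytokine IL-6, whose promoters the labels do not give. The comparison group held 3 samples of normal B cells from spleens of BALB/c mice aged 90 days, without these alleles per the labels. Tumor kind and tissue coincide, tumors were ground whole, and neither the recipient mice nor the purity of the B cells is described in the labels. The labels name no animals, and p-values then measure only how these samples vary, which may be technical.

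Complement is a cascade of plasma proteins that tags and lyses targets. C1q, built of A, B and C chains, recognises bound antibody and surface patterns and activates the proteases C1r and C1s. Of these, C1s cleaves C4 and C2 to form the classical C3 convertase. Factor B supplies the protease of the alternative pathway convertase, and the C1 inhibitor, a serpin, inactivates C1r and C1s. The liver makes most plasma complement, but C1q is made mainly by macrophages and dendritic cells. Fibroblasts and other stromal cells make C1s, C2, C4, factor B and C1 inhibitor, several of them under the influence of interferon and IL-6.

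The 3 C1q genes are neighbours on mouse chromosome 4, and of them C1qb was the one called in spontaneous tumors. To set it beside a chain that was not called, the RefSeq promoter windows of C1qb and C1qc are shown, 5′ to 3′ on the gene's own strand (assembly GRCm38.p6). Each runs from 250 bases before to 50 bases after a transcript start. In C1qc this start lies within the gene, downstream of its annotated 5′ end. Of the 9 listed genes, 4 had a window in the table. Capitals mark the letters that match AGGAAGT on either strand, the core of a site for PU.1, a transcription factor of myeloid and B cells. The C1qb window is chr4:136886151-136886450 on the minus strand, and the C1qc window is chr4:136892865-136893164 on the minus strand.
C1qb: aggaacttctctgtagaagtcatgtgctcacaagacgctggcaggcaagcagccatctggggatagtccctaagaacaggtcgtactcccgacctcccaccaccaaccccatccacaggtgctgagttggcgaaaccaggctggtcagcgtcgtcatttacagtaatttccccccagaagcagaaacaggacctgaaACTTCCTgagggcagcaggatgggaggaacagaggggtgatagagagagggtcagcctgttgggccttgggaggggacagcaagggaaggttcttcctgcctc
C1qc: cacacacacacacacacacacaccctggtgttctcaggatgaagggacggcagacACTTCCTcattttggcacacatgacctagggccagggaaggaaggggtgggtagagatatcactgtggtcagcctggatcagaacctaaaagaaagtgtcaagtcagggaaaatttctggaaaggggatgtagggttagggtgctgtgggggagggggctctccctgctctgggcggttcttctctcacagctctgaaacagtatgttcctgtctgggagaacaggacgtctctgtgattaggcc
The match began 53 bases before the start in C1qb and 195 bases before it in C1qc, counted in the direction of the gene. AGGAAGT occurred in 9.27% of 32544 promoter windows of the same length. TTCNNNGAA, the element bound by STAT factors downstream of IL-6, was in 8.33% of windows. TGCTGAC, a core bound by MAF factors, was in 4.65%, and TTGCNNAA, a C/EBP site, in 10.8%. None of these 3 motifs was found in the C1qb or C1qc window, on either strand. A match is a run of letters and not evidence of binding.

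Values are normalized intensities on the log2 scale, compared with limma in 1 model of all 28 arrays. The adjusted p is a Benjamini-Hochberg value over all 11804 genes, and a gene is said to have risen or fallen where it was under 0.05. Arrays had 11544 to 16866 detected probes, with adoptive-transfer tumors 1 and 5 lowest (11544 and 13669). Their cell type markers went with the labels: the mean of 11 mature B cell genes was 5.47 to 7.45 in adoptive-transfer tumors, 5.46 to 6.25 in spontaneous tumors and 10.8 to 11.0 in normal B cells. The normal samples also held macrophage transcripts. Of 20 macrophage markers 15 were detected on at least 1 normal array, Slc40a1, the iron exporter of splenic macrophages, averaged 12.5 there, and Gpnmb, Trem2, Msr1, Folr2 and Marco were detected on none. In bulk RNA, fewer cells of a type and less RNA per cell cannot be told apart. Exocrine pancreas transcripts were raised in 1 adoptive-transfer and 6 spontaneous tumors, and hepatocyte transcripts in 1 tumor of each kind. Eif2s3y, a Y-linked gene, was at 4.40 to 4.82 in all adoptive-transfer tumors, at 4.34 to 8.58 in spontaneous tumors and at 8.93 to 9.04 in normal B cells, so in the first comparison a sex-linked difference and the tumor cannot be told apart.

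Against normal B cells, the C1 inhibitor, C4b and C2 rose in both tumor kinds. Factor B rose in adoptive-transfer tumors and C1qb in spontaneous tumors, while C1qa, C1qc and C1s passed the test in neither. Thus 4 of 8 genes were called higher and 0 lower in each comparison. Of all genes 19.8% were called higher (36.5% either way) in adoptive-transfer tumors, and 18.5% (36.4% either way) in the spontaneous kind. With array weights, which let noisier arrays count less, 6 of the 8 were called in each, and C1s was among them in both. Most genes were called in that setting, 7215 and 7161 of 11804, so the count of 6 does not set complement genes apart. The median log2 difference of the 8 genes was 1.69 in adoptive-transfer tumors (0.10 over all genes) and 1.75 in spontaneous tumors (0.08 over all genes). These medians and the counts of called genes include C1s, Cfb and Serping1 among the 8, which entered the test only where tumors were high. The plot of complement levels by array shows each value.

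**Figure D1:**
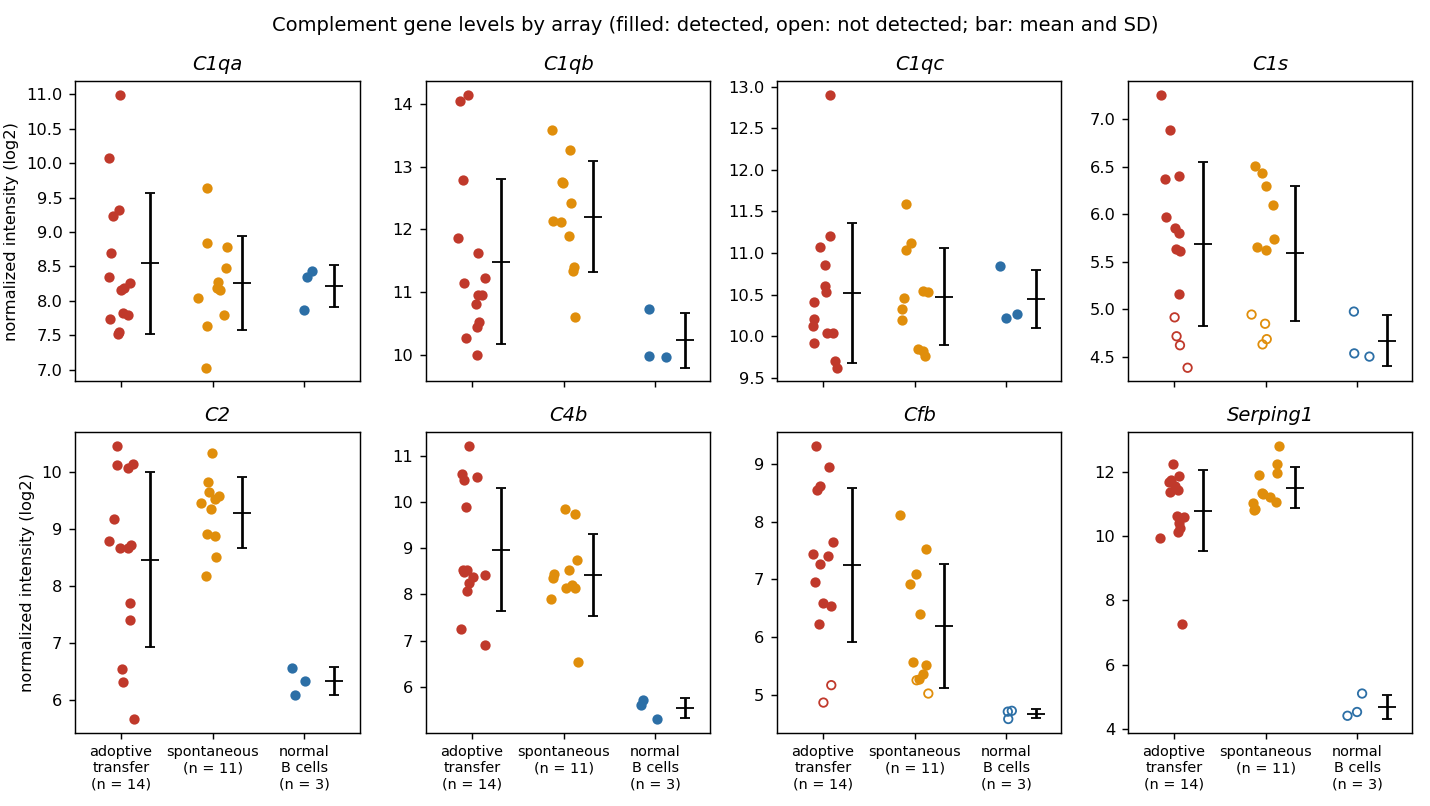
Normalized intensity (log2) of 8 complement genes on 28 arrays, with adoptive-transfer tumors (14), spontaneous tumors (11) and normal B cells (3) from left to right, filled where detected and open where not, and the mean and SD beside each group. Serping1 lies at 7.27 or more in all tumors and at 5.10 or less in normal B cells, while C1qa and C1qc overlap throughout.

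The recognition subunit C1q was read chain by chain. C1qa, the A chain, was at 7.51 to 11.00 in adoptive-transfer tumors (median 8.22) and at 7.03 to 9.63 in spontaneous tumors (median 8.18). It was at 8.35, 7.87 and 8.43 in the 3 normal samples, inside both tumor ranges. The means were 8.55 ± 1.02 (SD, n = 14), 8.26 ± 0.69 (n = 11) and 8.22 ± 0.30 (n = 3). The difference from normal B cells was 0.33 ± 0.52 (SE) in adoptive-transfer tumors (limma adjusted p = 0.667) and 0.04 ± 0.53 in spontaneous tumors (adjusted p = 0.961).

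C1qc, the C chain, lay at 9.62 to 12.9 in adoptive-transfer tumors (median 10.3), at 9.76 to 11.6 in spontaneous tumors (median 10.5), and at 10.8, 10.2 and 10.3 in normal B cells. Again the normal values fell inside both tumor ranges. Its differences from normal B cells were 0.07 ± 0.44 (adoptive-transfer, limma adjusted p = 0.920) and 0.03 ± 0.45 (spontaneous, adjusted p = 0.966). The sign of these small C1qa and C1qc differences turned under median scaling of the arrays, to -0.14 and -0.17 in adoptive-transfer tumors and to -0.39 and -0.18 in spontaneous tumors.

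C1qb, the B chain, was at 10.6 to 13.6 in spontaneous tumors, with a median of 12.1. Normal B cells had 10.7, 9.97 and 9.98, so 1 normal sample lay above the lowest tumor. It rose by 1.98 ± 0.68 in spontaneous tumors, a 3.93-fold higher intensity (12.2 ± 0.88 in 11 tumors, 10.2 ± 0.44 in 3 normal samples, limma adjusted p = 0.0226). This call was lost without normal sample 2 or 3 (1.85 ± 0.82 each, adjusted p = 0.0950 and 0.0941), with the level of Eif2s3y as a covariate (1.71 ± 0.76, 0.0901) and with the mean of fibroblast and matrix markers as one (1.77 ± 0.94, 0.210). In adoptive-transfer tumors C1qb was at 10.00 to 14.1 (median 11.1), and the difference of 1.26 ± 0.66 did not pass the test (adjusted p = 0.146). With array weights it did (1.32 ± 0.43, limma adjusted p = 0.00956). Tumors 3 and 4 of that kind were the highest, at 14.1 each, while their C1qa was 8.25 and 7.83, within the range of normal B cells or just under it.

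C1s, the C1 protease that cleaves C4 and C2, was near the detection limit. It was detected in 10 of 14 adoptive-transfer tumors (4.38 to 7.26, median 5.72) and in 7 of 11 spontaneous tumors (4.63 to 6.51, median 5.66). The normal arrays, at 4.98, 4.50 and 4.53, were not above background. The difference was 1.02 ± 0.47 in adoptive-transfer tumors, at least 1.47-fold, and did not pass the test (limma adjusted p = 0.0911). In spontaneous tumors it was 0.92 ± 0.48, at least 1.38-fold (adjusted p = 0.141). For such a bound, each normal array enters with the lowest signal detected on it, or its own value where that is higher. The bound holds for the probe and normalization used, and other probes or settings can give smaller differences. Without adoptive-transfer tumor 1, in which C1s was lowest, the adjusted p was 0.0493 (1.12 ± 0.45). With array weights C1s passed in both kinds, at 1.34 ± 0.29 in adoptive-transfer and 1.08 ± 0.28 in spontaneous tumors (limma adjusted p = 0.000175 and 0.00127).

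C2 and C4b are the substrates of C1s and the parts of the classical convertase. C2 was at 8.18 to 10.3 in spontaneous tumors (median 9.46), against 6.57, 6.09 and 6.35 in normal B cells, with no overlap. It rose 7.78-fold there (2.96 ± 0.72, limma adjusted p = 0.00167). In adoptive-transfer tumors C2 ranged from 5.67 to 10.5 (median 8.70) and overlapped normal B cells, with tumors 5, 7 and 9 at 6.55, 6.31 and 5.67. The rise was 4.37-fold (2.13 ± 0.70, adjusted p = 0.0179), and without those 3 tumors the log2 difference was 2.75 ± 0.49 (adjusted p = 4.68e-05). That call was lost without normal sample 2 (2.00 ± 0.85, adjusted p = 0.0817) or 3 (2.13 ± 0.85, 0.0628) and with median scaling (1.68 ± 0.74, 0.0790). It was also lost when only these 2 groups were fitted (2.13 ± 0.83, adjusted p = 0.0601) and with Eif2s3y as a covariate (2.34 ± 1.10, 0.160). With the matrix mean as a covariate the C2 difference changed sign, to -1.14 ± 0.51 among adoptive-transfer tumors and -0.13 ± 0.51 among spontaneous tumors (limma adjusted p = 0.139 and 0.903).

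C4b was at 6.90 to 11.2 in adoptive-transfer tumors (median 8.51) and at 6.54 to 9.85 in spontaneous tumors (median 8.37). Normal B cells had 5.31, 5.61 and 5.73, below every tumor. C4b rose 10.7-fold in adoptive-transfer tumors (3.42 ± 0.67, limma adjusted p = 0.000156) and 7.31-fold in spontaneous tumors (2.87 ± 0.68, adjusted p = 0.00137). With the matrix mean as a covariate both calls were lost (2.06 ± 0.89 and 1.59 ± 0.88, adjusted p = 0.120 and 0.231), and with Eif2s3y the first was (2.96 ± 1.04, adjusted p = 0.0503). These values come from the brightest of its 3 probes. The other 2 probes, at means of 5.12 and 5.34 over all arrays, differed by 0.61 ± 0.35 and 0.87 ± 0.43 in adoptive-transfer tumors and by 0.54 ± 0.36 and 0.65 ± 0.44 in spontaneous tumors, and passed the test in neither. Over 28 arrays the dim probes correlated with each other (r = 0.89) more closely than with the bright one (r = 0.46 and 0.50). C4a, the near-identical neighbouring copy of C4b, correlated with the bright C4b probe at r = 0.97 over 25 tumors (deviations from the group mean), so which copy the bright probe reads is uncertain.

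Factor B, the alternative pathway protease, was detected in 12 of 14 adoptive-transfer tumors (4.87 to 9.31, median 7.33) and in 9 of 11 spontaneous tumors (5.02 to 8.11, median 5.58). Normal arrays, at 4.72, 4.71 and 4.58, were not above background and lay below every tumor. It rose by 2.58 ± 0.70 in adoptive-transfer tumors, at least 4.37-fold (limma adjusted p = 0.00440), a call lost with Eif2s3y or the matrix mean as a covariate (2.35 ± 1.10 and 1.59 ± 0.97, adjusted p = 0.157 and 0.305). In spontaneous tumors the difference was 1.52 ± 0.72, at least 2.09-fold, and did not pass (adjusted p = 0.103). With only these 2 groups in the fit, the spontaneous difference had an adjusted p of 0.0379, and with array weights it was 1.48 ± 0.43 (limma adjusted p = 0.00368).

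The C1 inhibitor Serping1 had the largest difference of the 8 genes in both comparisons. It was at 7.27 to 12.2 in adoptive-transfer tumors (median 11.0) and at 10.8 to 12.8 in spontaneous tumors (median 11.3). The normal arrays, at 4.41, 4.53 and 5.10, were not above background, and no tumor reached down to them. On the probe used, its intensity was at least 51.0-fold higher in adoptive-transfer tumors (6.12 ± 0.60, limma adjusted p = 3.28e-09). In spontaneous tumors it was at least 83.2-fold higher (6.83 ± 0.61, adjusted p = 6.32e-10). A second probe gave 5.50 ± 0.70 and 6.30 ± 0.72, and both probes followed each other at r = 0.99 over 28 arrays. In all 46 alternatives run, it stayed past the threshold in both comparisons, with differences from 3.87 to 6.90 in adoptive-transfer tumors and from 4.50 to 7.16 in spontaneous tumors.

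**Figure D2:**
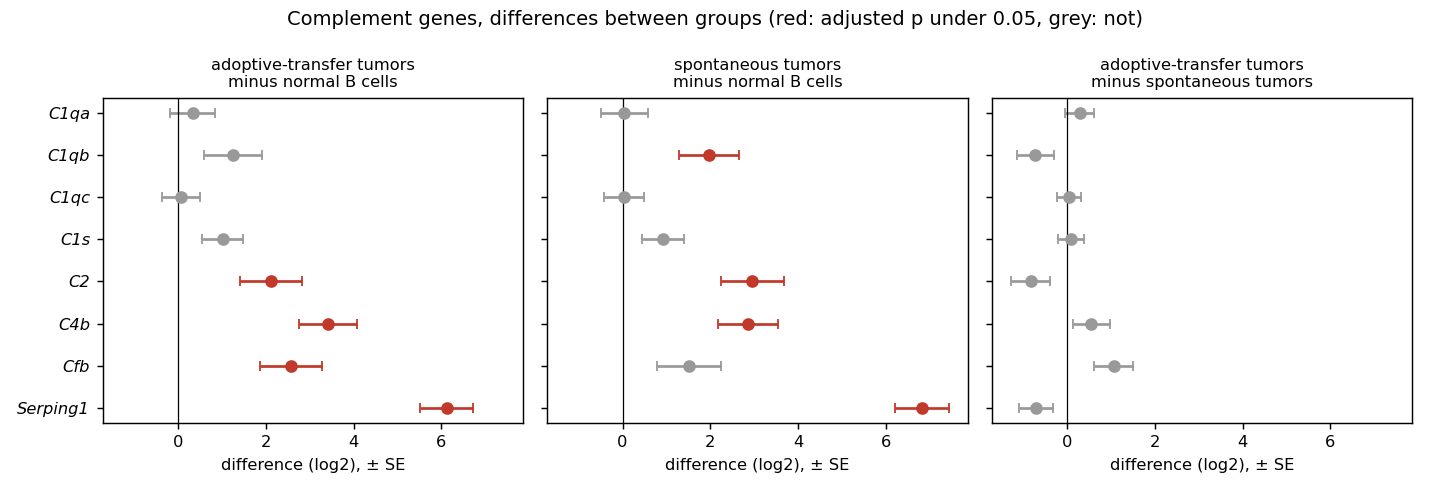
Differences of 8 complement genes on the log2 scale with SE, for adoptive-transfer tumors minus normal B cells, spontaneous tumors minus normal B cells, and adoptive-transfer minus spontaneous tumors, red where the adjusted p was under 0.05. Serping1 stands at 6.12 and 6.83 in the first pair of panels, and no gene is red in the third.

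Groups without overlap were seen for 3 of the 8 genes in adoptive-transfer tumors (C4b, Cfb and Serping1, against 19.4% of all genes). In spontaneous tumors they were seen for 4 (C2, C4b, Cfb and Serping1, against 38.6% of all genes). Both comparisons share the 3 normal samples. Cfb and Serping1 count in both and entered the test only through tumors. Their separation from normal samples is therefore not independent of the filter. Fitted singly, 5 of the 12 complement probes were called in each comparison, against 34.7% of all tested probes in adoptive-transfer and 34.3% in spontaneous tumors. Both Serping1 probes, undetected on the normal arrays, are among the 5 in each.

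Between the tumor kinds, adoptive-transfer against spontaneous, limma called 0 of the 8 genes, while 2.73% of all genes were called (1.37% higher, 1.36% lower) and 2.14% of all probes. None of the 8 separated the kinds without overlap, and 0.0169% of all genes did. At an unadjusted p under 0.05 only Cfb passed, with 7.25 ± 1.33 in adoptive-transfer (SD, n = 14) and 6.19 ± 1.07 in spontaneous tumors (n = 11), a difference of 1.07 ± 0.45 (limma adjusted p = 0.212). C4b differed by 0.55 ± 0.42 in the same direction. C2 (-0.83 ± 0.45), C1qb (-0.72 ± 0.42) and Serping1 (-0.71 ± 0.38) were lower in adoptive-transfer tumors without passing the test. With the matrix mean as a covariate C2 did pass (-1.01 ± 0.23, limma adjusted p = 0.0144). C1qa (0.29 ± 0.33), C1s (0.10 ± 0.30) and C1qc (0.04 ± 0.28) differed least. Spread was wider among adoptive-transfer tumors for all 8 genes, with SDs from 0.84 to 1.54 log2 units, against 0.59 to 1.07 in spontaneous tumors. Whole arrays also differed more in that kind, with a lowest correlation between arrays of 0.752, against 0.881 in spontaneous tumors. The share of all genes with a wider spread was not computed, so whether this is particular to complement genes is not known.

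The C1q chains and the other components were then set against macrophage and stromal markers within each tumor kind. The macrophage mean took 20 genes, among them Adgre1, Csf1r and Mrc1, and ran from 6.68 to 10.2 in adoptive-transfer tumors, 6.97 to 8.10 in spontaneous tumors and 7.22 to 7.42 in normal B cells. The fibroblast and matrix mean took 23 genes, among them Dcn, Bgn and Acta2, and ran from 5.63 to 9.22, from 6.84 to 8.61 and from 4.73 to 4.75 in the same groups. Adoptive-transfer tumors 5, 7 and 9 stood apart with matrix means of 5.96, 5.63 and 5.63, below the 7.63 to 9.22 of the other 11, so matrix relations were taken over those 11. P-values are two-sided permutation values with 100000 draws, adjusted over the 32 relations computed.

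C1qa followed the macrophage mean in adoptive-transfer tumors (r = 0.86, permutation p = 0.00023, adjusted p = 0.00245, and rho = 0.89, permutation p = 5e-05, adjusted p = 0.00112, n = 14). So did C1qc (r = 0.84, permutation p = 0.00072, adjusted p = 0.00384, and rho = 0.68, permutation p = 0.00873, adjusted p = 0.0307). Tumor 7 had the highest macrophage mean, 10.2, with the highest C1qa, 11.00, and C1qc, 12.9. Without tumors 6 and 7, the farthest from the median, r was 0.67 for C1qa (permutation adjusted p = 0.0586) and 0.53 for C1qc (adjusted p = 0.197), so these relations rest in part on that pair. In spontaneous tumors r was 0.63 for C1qa and 0.65 for C1qc (permutation p = 0.0341 and 0.0322, adjusted p = 0.0909 each), with rho = 0.75 for each (permutation p = 0.00958 and 0.0116, adjusted p = 0.0307 and 0.0337, n = 11). Without spontaneous tumors 2 and 4 these r values were 0.89 and 0.93.

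C1qb did not follow the macrophage mean, with r = 0.13 and rho = 0.14 in adoptive-transfer tumors (permutation p = 0.657 and 0.625) and r = 0.04 and rho = -0.02 in spontaneous tumors (permutation p = 0.904 and 0.967). Without the farthest pair r was -0.10 and 0.31. That pair did not include adoptive-transfer tumors 3 and 4, which had the highest C1qb. The relation to the macrophage mean was not computed without those. Among the chains, C1qa and C1qc correlated at r = 0.87 in adoptive-transfer tumors and r = 0.89 in spontaneous tumors (permutation adjusted p = 0.00406 each, over 56 pairs of complement genes and kinds). C1qa and C1qb gave r = 0.26 and 0.05 in the same kinds. Without adoptive-transfer tumors 1 and 7 and spontaneous tumors 3 and 9, these were 0.02 and 0.09. Adoptive-transfer tumors 3 and 4 stayed in, and r of C1qa with C1qb was not computed without them. C1qb and C1qc gave r = 0.43 among adoptive-transfer tumors (permutation p = 0.129), with rho = 0.62 (permutation p = 0.0206, adjusted p = 0.0960). Without tumors 3 and 4 that r was 0.83, so the weak relation of C1qb to C1qc there rests on those 2 tumors. In spontaneous tumors C1qb and C1qc gave 0.36, and 0.16 without tumors 5 and 6.

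**Figure D3:**
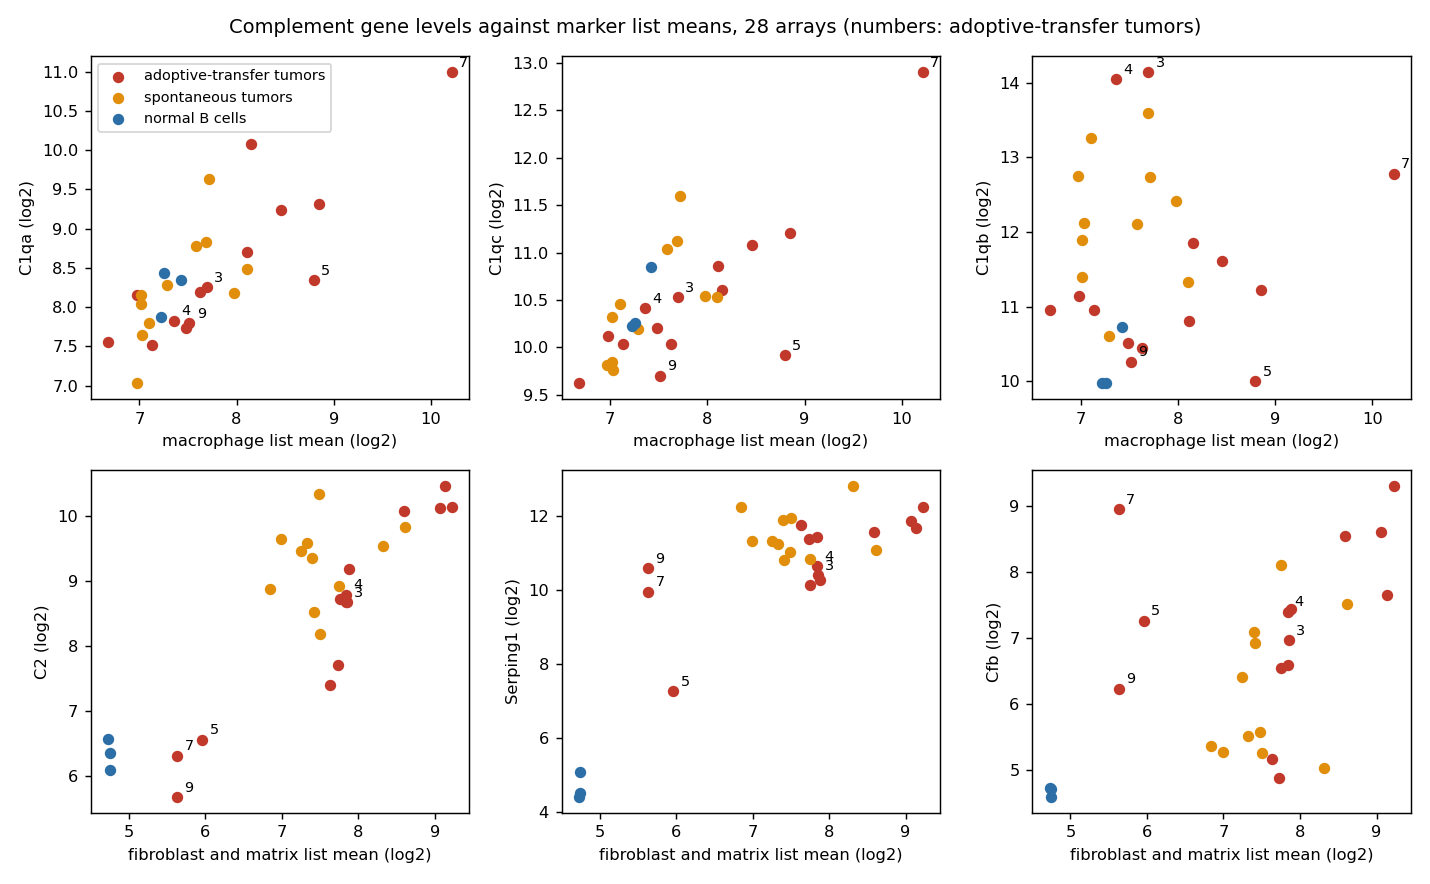
Levels of C1qa, C1qc and C1qb against the macrophage mean (top) and of C2, Serping1 and Cfb against the fibroblast and matrix mean (bottom), all on the log2 scale, 1 point per array, with adoptive-transfer tumors 3, 4, 5, 7 and 9 numbered. C1qa and C1qc climb along the macrophage mean in adoptive-transfer tumors (r = 0.86 and 0.84), C1qb does not (r = 0.13), and tumors 5, 7 and 9 fall to the C2 level of normal B cells.

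C2 tracked the matrix mean over the 11 adoptive-transfer tumors (r = 0.90, permutation p = 1e-05, the smallest the draws can give, adjusted p = 0.00032, and rho = 0.92, permutation p = 0.00021, adjusted p = 0.00224). Without tumors 2 and 6 r was 0.85. In the 3 tumors with a low matrix mean, C2 was at 6.55, 6.31 and 5.67, at or below the 6.09 to 6.57 of normal B cells. The relation was not seen within spontaneous tumors, where r was 0.23 and rho 0.12 (permutation p = 0.502 and 0.733). C2 did not track the macrophage mean in either kind (r = -0.05 and 0.15).

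Serping1 was at 7.27, 9.95 and 10.6 in the same 3 low-matrix tumors, so tumors 7 and 9 kept levels far above the 5.10 that was the normal maximum. Over the other 11 its r with the matrix mean was 0.65 (permutation p = 0.0326, adjusted p = 0.0909) and its rho 0.46 (p = 0.155 in the permutation test). Without tumors 2 and 6 r was 0.47. In spontaneous tumors r was 0.05. Which cells held the Serping1 RNA of the low-matrix tumors was not tested.

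C4b and Cfb moved with both lists. With the macrophage mean over 14 adoptive-transfer tumors, r was 0.74 for C4b and 0.79 for Cfb (permutation adjusted p = 0.00696 and 0.00384), with rho = 0.75 and 0.84 (permutation adjusted p = 0.0142 and 0.00328). Without tumors 6 and 7 these r values were 0.69 and 0.75. With the matrix mean over 11 tumors, r was 0.94 and 0.80 (permutation adjusted p = 0.00192 and 0.00868), with rho = 0.83 and 0.94. Without tumors 2 and 6 they were 0.94 and 0.80. C1qa (r = 0.91) and C1qc (r = 0.85) also moved with the matrix mean there, although C1qc gave 0.67 without tumors 2 and 6 (permutation adjusted p = 0.160), and the 2 list means themselves correlated at r = 0.91 over those 11 tumors. Over all 14 tumors the list means did not move together (r = -0.21), and r with the matrix mean was 0.05 for C1qa, -0.01 for C1qc, 0.36 for C4b, 0.25 for Cfb and 0.96 for C2. Tumor 7 combined the highest macrophage mean with a low matrix mean, and had C1qa at 11.00, C4b at 10.6, Cfb at 8.95 and C2 at 6.31. In spontaneous tumors neither C4b nor Cfb passed with either list (r from 0.35 to 0.48). C4b and Cfb correlated with each other at r = 0.90 in adoptive-transfer tumors (permutation adjusted p = 0.00112) and 0.67 in spontaneous tumors (permutation adjusted p = 0.113).

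As a second description, the genes most like each complement gene were ranked by Pearson correlation of deviations from the group mean over 25 tumors, among 11796 genes. C1qa had Fcgrt, the neonatal Fc receptor, first (r = 0.92), followed by Pla2g15, Tmem86a, Adgre1 and Apoe. C1qc shared 4 of these 5 genes, with Tmem86a first (r = 0.83), and Aoah was its other. Of the 20 macrophage markers, 13 were among the 500 genes nearest to C1qa and 16 among those nearest to C1qc, and 0 of the 23 matrix markers were. Such counts include the 3 low-matrix tumors and were not made without them. Over the other 11 adoptive-transfer tumors, r with the matrix mean was 0.91 for C1qa and 0.85 for C1qc. For C2 the counts were 2 macrophage and 18 matrix markers, and its nearest genes were Dkk3, Timp3, Dcn, Fkbp9 and Lhfp (r = 0.94 for Dkk3). Without the 3 low-matrix tumors, r with Dkk3 was 0.88.

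C1qb had 1 macrophage and 0 matrix markers among its nearest 500. Its nearest genes were Papln, Akr1e1, Tex264, Sorcs1 and Rnf135 (r = 0.83 for Papln), and none of them was among the 5 nearest of C1qa or C1qc. Within adoptive-transfer and spontaneous tumors r was 0.86 and 0.78 for Papln but 0.92 and 0.23 for Akr1e1. The ranking includes adoptive-transfer tumors 3 and 4, which had the highest C1qb, and was not run without them. Serping1 had 0 macrophage and 13 matrix markers, with Stard5 first (r = 0.84), then Ak3, Uqcrh, Lzts2 and Pafah1b3. Without the low-matrix tumors, r with Ak3 was 0.45. C1s had 0 and 3, led by the stromal chemokine Cxcl12 (r = 0.77) and by the matrix proteoglycan Lum (0.75), then Srpx, Vegfc and Cpq. Within spontaneous tumors r with Lum was 0.43. C1s did not track the matrix mean over the 11 adoptive-transfer tumors (r = 0.10) or in spontaneous tumors (r = 0.11, permutation adjusted p = 0.905 each). Over all 14 adoptive-transfer tumors that r was 0.51. C4b had 8 and 3 and Cfb 11 and 1. After C4a, C4b was nearest to Anpep, Timp2, Sod1 and Uap1l1, and Cfb to Csf1r, Ccnd1, Blvrb and Siglec1.

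Hepatocyte RNA was checked because the liver makes most plasma complement. Fgb and Tat were detected on no array and Alb on 1. Fgb and Tat were thus undetected even in spontaneous tumor 5, where the hepatocyte mean was 12.3. Alb averaged 4.63 over spontaneous tumors and 4.74 in normal B cells. Low values of these genes therefore cannot show that hepatocyte RNA was absent. The hepatocyte mean was 4.52 to 5.58 in adoptive-transfer tumors other than tumor 10 (9.19), 4.60 to 4.90 in spontaneous tumors other than tumor 5 (12.3), and 4.69 to 4.74 in normal B cells. Spontaneous tumor 5 held the highest C4b and Cfb of its kind, at 9.85 and 8.11. Without these 2 tumors the calls of the 8 genes against normal B cells were the same.

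Age was examined within each tumor kind. No gene of the 11804 had a slope past the threshold in limma (0% called), and 1094 in adoptive-transfer and 1339 in spontaneous tumors had an unadjusted p under 0.05. Among the complement genes the smallest p was that of Serping1 in spontaneous tumors, with -0.33 ± 0.10 log2 units per 30 days (limma p = 0.00508, adjusted p = 0.268). For C4b the slopes were -1.39 ± 0.58 among adoptive-transfer tumors and 0.37 ± 0.15 among spontaneous tumors (limma adjusted p = 0.515 and 0.405).

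Other genes of the complement system were read from lists covering the classical proteases and C4a, the lectin pathway, properdin and factor D, the terminal components, fluid-phase and membrane inhibitors, and receptors. Of 45 genes 42 had a probe and 28 were tested. In adoptive-transfer tumors 5 were higher and 4 lower than in normal B cells, against 19.8% and 16.7% of all genes. In spontaneous tumors 7 were higher and 5 lower, against 18.5% and 17.9% of all genes. Of the 28 genes, 11 were detected on no normal array and so entered the test through tumors, and 1, Cr2, was detected in no tumor. Beside Serping1, 4 fluid-phase inhibitors were tested, Cfi (factor I), C4bp, Vtn (vitronectin) and Cpn1, and limma called 0 of them in either comparison. At an unadjusted p under 0.05 there were 0 in the first comparison and 1 in the second, Vtn (1.81 ± 0.83, adjusted p = 0.0917). All 4 were undetected on the normal arrays.

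**Figure D4:**
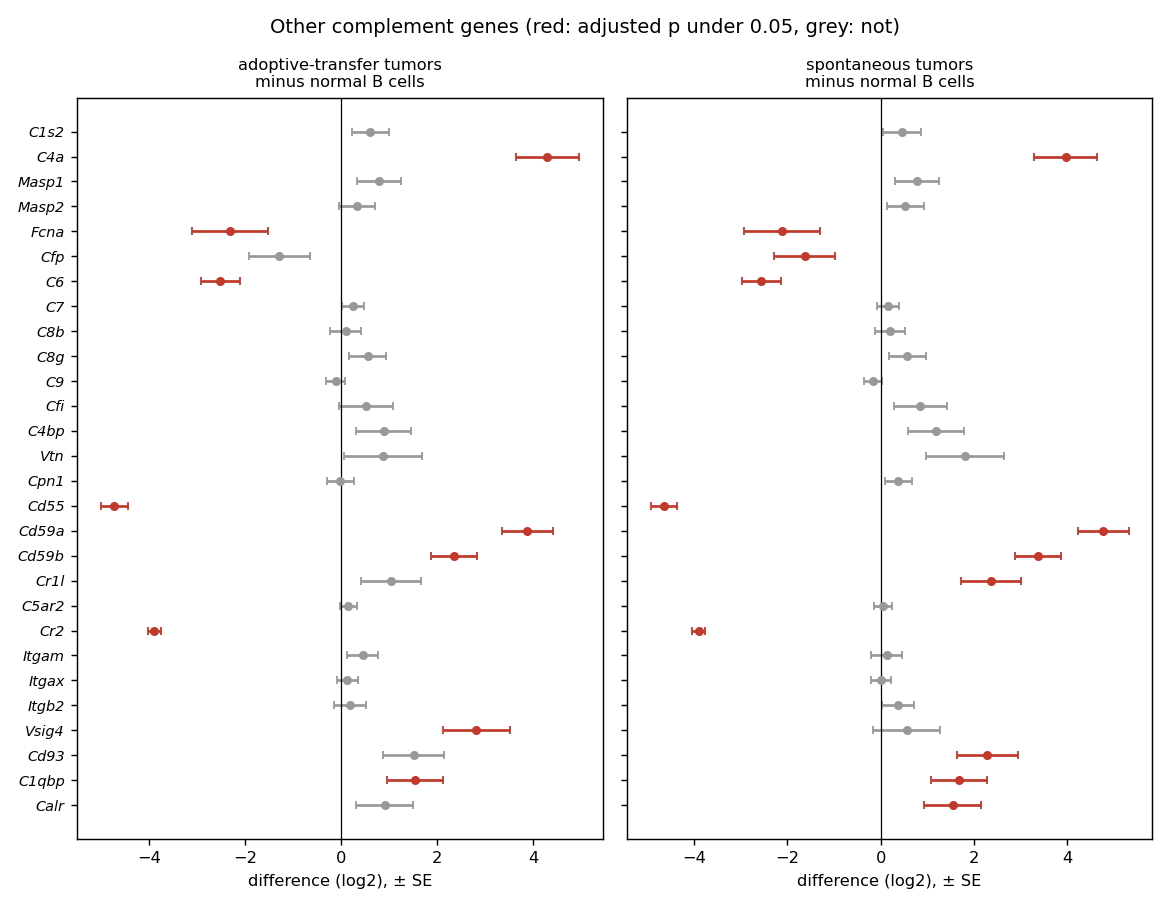
Differences on the log2 scale with SE of 28 other complement genes, adoptive-transfer tumors minus normal B cells (left) and spontaneous tumors minus normal B cells (right), red where the adjusted p was under 0.05. C4a, Cd59a and Cd59b lie to the right and Cd55, Cr2, C6 and Fcna to the left in both panels.

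Membrane inhibitors split. Cd59a, which blocks assembly of the membrane attack complex, averaged 10.3 ± 1.00 in adoptive-transfer tumors, 11.2 ± 0.76 in spontaneous tumors and 6.41 ± 0.14 in normal B cells, and rose by 3.88 ± 0.53 and 4.78 ± 0.54 (limma adjusted p = 9.54e-07 and 4.36e-08). Its duplicate Cd59b rose by 2.35 ± 0.48 and 3.38 ± 0.49. Cd55, which dissociates convertases, fell to 5.31 ± 0.38 and 5.40 ± 0.53, against 10.0 ± 0.11 in normal B cells (adjusted p = 6.06e-14 and 1.97e-13). Cr1l, also called Crry, a mouse convertase inhibitor, rose by 2.36 ± 0.65 in spontaneous tumors (adjusted p = 0.00447), and differed by 1.04 ± 0.63 in adoptive-transfer tumors (adjusted p = 0.214).

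Of the receptors, Cr2, the C3d receptor CD21 of mature B cells, was detected in 0 of 25 tumors and was at least 9.64-fold lower in adoptive-transfer tumors and at least 9.87-fold lower in spontaneous tumors (8.47 ± 0.22 in normal B cells). Vsig4, a macrophage receptor for C3b, rose by 2.82 ± 0.70 in adoptive-transfer tumors, at least 6.74-fold (limma adjusted p = 0.00203), a call lost with Eif2s3y as a covariate (2.75 ± 1.10, adjusted p = 0.0889). C4a rose by 4.30 ± 0.66 and 3.97 ± 0.68 (adjusted p = 6.72e-06 and 2.87e-05), subject to the same uncertainty as C4b. The terminal component C6 fell by 2.52 ± 0.40 and by 2.55 ± 0.41, and ficolin A (Fcna), a lectin pathway recognition protein of macrophages, fell by 2.32 ± 0.79 and by 2.11 ± 0.81 (adjusted p = 0.0210 and 0.0405). Fcna averaged 11.1 ± 0.30 in normal B cells, beside their Slc40a1 mean of 12.5.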

How the data were processed

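Illumina arrays measured total RNA of 28 mouse samples. Per the file headers, the first of 2 deposited tables holds a probe intensity, linear and not normalized, with a detection score per array. The deposited detection score is a fraction from 0 to 1, and 1 minus it served as detection p. The other holds deposited log2 values, of equal distribution on every array (median 7.15). The submitters' processing notes name Partek. The genome build and the chip of each sample are not given in the sources used here.

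In R 4.3.3 with limma 3.58.1 and version 1.17.8 of data.table, intensities were corrected and quantile normalized with neqc (offset 16, controls inferred from detection p). The probe annotation gave 1 symbol for 34885 probes, several for 18 and none for 10378. A gene was represented by its brightest probe and tested if detected (p under 0.05) on at least 3 arrays. Limma was fitted to 3 group means over all 28 arrays. Probes were also fitted singly, and age slopes within each tumor kind. The fit was also run on simulated data with the same spread in every group. The spreads here differ between groups, so that run does not bear on the p-values. The number of arrays limits the precision. Same-numbered samples of different groups did not deviate together (17 pairs, correlations from -0.08 to 0.22, median 0.01), so numbers were not treated as pairs. The 9 genes, the gene and marker lists and the tests were chosen with earlier results of these data known. All 9 genes are named. Of other complement genes at most 4 called per comparison and direction are named, with every tested fluid-phase inhibitor, and for each gene its 5 nearest genes. The alternatives covered background, scaling, filters, probes, weights, covariates and arrays left out. The split at tumors 5, 7 and 9, the hepatocyte check and the gene pairs were chosen after seeing the data. Promoters are from RefSeq (GRCm38.p6).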

Additional observations from a re-analysis of the deposited data

Results flagged for a closer look

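Of the 36 complement genes tested, Vsig4, the macrophage receptor for C3b, was the one that differed between the tumor kinds. A single call among 36 genes is near the share of all genes called between the kinds, 2.73%. It was higher in adoptive-transfer than in spontaneous tumors by 2.25 ± 0.44 log2 units (limma adjusted p = 0.00759), with means of 7.88 ± 1.47 (SD, n = 14) and 5.62 ± 0.79 (n = 11). It was detected in 14 of 14 adoptive-transfer and 7 of 11 spontaneous tumors, and the groups overlapped. The macrophage mean ran from 6.68 to 10.2 in adoptive-transfer tumors and from 6.97 to 8.10 in spontaneous tumors, and with it as a covariate the Vsig4 difference was 1.82 ± 0.41 (limma adjusted p = 0.0160). With Eif2s3y as a covariate the call was lost (2.22 ± 0.66, limma adjusted p = 0.267).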

How the results depend on the processing

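Over 46 alternatives and 3 comparisons, 1042 of 1104 differences of the 8 complement genes kept their direction and their side of the threshold, 14 lost a call, 10 gained one and 38 changed sign. Serping1 against normal B cells kept its call in all of them. Genes called in adoptive-transfer tumors, spontaneous tumors and between the kinds numbered 4311, 4301 and 322. They numbered 7812 and 7732 with every probe fitted and 7215, 7161 and 894 with array weights. With the Y-linked Eif2s3y as covariate 1950 were called in adoptive-transfer tumors and 1 between the kinds, and with the matrix mean 1914 and 2142 against normal B cells. Between the kinds there were 140 with median scaling, 207 with only these groups fitted, 707 without adoptive-transfer tumors 1 and 5, 67 without arrays with pancreas transcripts and 681 without the 3 low-matrix tumors. Leaving out 1 array gave 3215 to 5009, 3276 to 4744 and 170 to 565 genes (565 without adoptive-transfer tumor 5), 3 to 5 and 3 to 4 complement genes, and 0 between the kinds. Age slopes numbered 0 to 41 in adoptive-transfer tumors (41 without tumor 14, 7 without tumor 10).

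With the replicate number as a block, 172 genes were called between the kinds and C1qc in spontaneous tumors turned to -0.14. It changed no other call of the 8 genes. Median scaling left 33.3% of calls higher in adoptive-transfer and 32.2% in spontaneous tumors, against 54.3% and 50.8% here, and the median of all genes moved by -0.18 and -0.15. C1qa and C1qc turned to -0.14 and -0.17 in the first kind and to -0.39 and -0.18 in the second. With Eif2s3y, 1 complement gene was called in adoptive-transfer tumors, C4b losing its call at 2.96 (adjusted p = 0.0503), Cfb at 2.35 (0.157) and C2 at 2.34 (0.160), C1qb lost it in spontaneous tumors (1.71, 0.0901), and C1s turned to -0.075 between the kinds. With the matrix mean as covariate 1 was called in each of the 3 comparisons, C2 at -1.01 between the kinds. In adoptive-transfer tumors C2 turned to -1.14, and C4b and Cfb lost their calls. In the spontaneous kind C2 turned to -0.13, C1qa to -0.12 and C1s to -0.022, and C4b and C1qb lost theirs. With the macrophage mean as covariate C1qa turned to -0.27, -0.058 and -0.22 and C1qc to -0.42, -0.051 and -0.37 in adoptive-transfer tumors, spontaneous tumors and between the kinds. C1qc turned to -0.030 between the kinds without pancreas arrays, and to -0.016 in adoptive-transfer tumors and -0.049 between the kinds without the 3 low-matrix tumors. C1s gained a call in adoptive-transfer tumors without those 3 (adjusted p = 0.0265). With array weights 6 of the 8 were called in each tumor kind, C1s in both, beside 7215 and 7161 of all 11804 genes. Leaving out 1 array, C1qc ran from -0.11 to 0.27, from -0.079 to 0.23 and from -0.14 to 0.15, C1qa in spontaneous tumors from -0.13 to 0.17, and C1s between the kinds from -0.023 to 0.20. These covariates differ between the groups, and the cause of each change was not tested.

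Of the correlations, without the farthest pair C1qb with the macrophage mean turned to -0.10 in adoptive-transfer tumors, C2 to 0.26 there, C2 to -0.13 within the spontaneous kind, and Serping1 to -0.24 in spontaneous tumors. With the matrix mean C1s turned to -0.25 in adoptive-transfer tumors, and C2 to -0.13 and Serping1 to -0.53 in spontaneous tumors. Without background correction C1s and C2 with the macrophage mean were 0.026 and 0.0060 in adoptive-transfer tumors. Signals near background limit C1s, Cfb and the 2 dim C4b probes.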

Other observations

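The C1qb probe rose above 14 in adoptive-transfer tumors 3 and 4, whose macrophage means were 7.69 and 7.36 and whose C1qc was 10.5 and 10.4, close to the 10.4 ± 0.35 of normal B cells (SD, n = 3). In tumor 7, with the macrophage mean at 10.2, C1qb was 12.8. The gene has a single probe here, so no second probe bears on these values. Papln, the gene nearest to C1qb over 25 tumors, correlated with it at r = 0.86 within adoptive-transfer tumors and r = 0.78 within spontaneous tumors.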
